A study of Mus musculus with 6 samples.

Results

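The 68 genes described here encode the heat shock proteins HSP70, HSP90, HSP110 and the small heat shock proteins, and their J-domain cochaperones. They also encode the cytosolic chaperonin CCT and some partners of these proteins, such as Hsf1 and Bag3. They were taken by symbol from the 10539 protein-coding genes of the deposited table: names starting with Hspa, Hspb, Hspd, Hspe, Hsph, Hsp90 or Dnaj, the Cct subunits, Tcp1, Hsf1 and Bag3. Of the 68, 63 had a mean of at least 1 FPKM (fragments per kilobase of gene, scaled to the mapped fragments of the library) over 6 libraries and were tested. RNA was sequenced from C57BL/6 mouse lung alveolar macrophages, the resident phagocytes of the airspace, all of which overexpressed the transcription factor C/EBPβ. The 3 libraries labelled CEBPβ came from such cells. The other 3, labelled CEBPβ-A, came from such cells given an adenovirus (Ad) with A20, the ubiquitin-editing enzyme of the gene Tnfaip3. The cells were treated with virus after isolation, but the labels name no virus for the CEBPβ cells, nor the means by which C/EBPβ was overexpressed, nor the age of the mice. Nothing in the labels says that replicates were separate animals or cultures, so p-values cover the spread among these 6 libraries alone, and that spread may be technical.

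Heat shock proteins bind unfolded or aggregating proteins to refold them, hold them or pass them on for degradation, and many of them use ATP. J-domain proteins bring clients to HSP70 and trigger its ATP hydrolysis, while HSP110 proteins and Bag3 release ADP from it. The transcription factor HSF1 is held back by chaperones in unstressed cells and, when these are drawn away by misfolded protein, binds heat shock elements, inverted repeats of GAA units in the promoters of its targets. Some chaperone genes, such as Hspa8, are active in every cell at all times, whereas others, such as Hspa1a and Hspa1b, are mostly silent until stress. The 9 heat-inducible members were Hspa1a, Hspa1b, Hspa4l, Hsph1, Hsp90aa1, Dnaja1, Dnajb1, Dnajb4 and Bag3, taken as textbook heat shock factor targets of the cytosol. The constitutive arm held 46 tested members: 7 of HSP70, HSP90 and an HSP70 exchange factor, 7 of CCT, 10 of mitochondria and 22 others. These 22 were further J-domain proteins, the small heat shock protein Hspb6 and Hspbap1, which was taken by its symbol alone. A class of 8 members of the endoplasmic reticulum (ER), where most answer to a different stress response, was kept apart, as was Hsf1. Further members of the ER, such as Dnajb12, Dnajb14 and Dnajc16, were left among the other J-domain proteins.

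Alveolar macrophage markers were present in every library: all 11 of 11 were listed. Siglecf, at 101 to 106 FPKM, overlapped between groups, whereas Car4 (54.1 to 76.1 FPKM in CEBPβ-A against 44.3 to 48.0), Ear2, Pparg and Cd68 were higher and Itgax lower without overlap, and the part of these differences in the results below was not tested. Tnfaip3 was not higher where A20 was delivered: the libraries labelled CEBPβ-A had 7.94, 15.5 and 7.32 FPKM and those labelled CEBPβ had 8.76, 17.7 and 19.2. Every direction given here is therefore between libraries as labelled. CEBPβ-A replicate 3 lay far from the rest on the leading principal axis, at 25.7 where the others spanned −11.7 to −0.095, and where a member is given a log2 fold change of its own that moves by over 1.5 times without that library, both values are given, save those within 0.03 of 0. Across 9600 genes the log2 fold change was lower for longer transcripts (Spearman rho −0.53, over genes, which are not independent replicates). Of 8 neutrophil markers 4 were analysed, and their summed level was 301 to 319 FPKM in CEBPβ-A and 215 to 265 in CEBPβ. Most of this was S100a8 (286 to 303 against 199 to 251 FPKM), while Cxcr2 (2.96 to 3.83 against 2.98 to 3.46) and Csf3r (8.66 to 10.9 against 9.85 to 11.6) overlapped. S100a9, Ly6g, Retnlg and Ngp were not analysed here. The 3 of 10 epithelial markers analysed summed to 28.1 to 61.7 FPKM in CEBPβ-A and 23.9 to 35.2 in CEBPβ, most of it Scgb1a1. Of the listed markers of T cells, B cells, fibroblasts and endothelium, none was among the genes analysed. The part of the neutrophil and epithelial signal in the results below was not tested.

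Regulatory sequence is shown for the HSP70 pair, because the lowest fold changes among members belong to Hspa1a and Hspa1b and their promoters are nearly the same. Both lie on the minus strand of chromosome 17. The lines give the 250 bases before the RefSeq start (GRCm38.p6, 5′ to 3′), with the letters of a 2-unit heat shock element, GAANNTTC, in capitals.
Hspa1a (chr17:34972157-34972406): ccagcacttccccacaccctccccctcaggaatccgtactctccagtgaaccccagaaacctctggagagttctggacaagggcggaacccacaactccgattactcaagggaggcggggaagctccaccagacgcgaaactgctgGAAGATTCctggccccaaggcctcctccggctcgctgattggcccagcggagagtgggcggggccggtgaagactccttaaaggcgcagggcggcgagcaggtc
Hspa1b (chr17:34959239-34959488): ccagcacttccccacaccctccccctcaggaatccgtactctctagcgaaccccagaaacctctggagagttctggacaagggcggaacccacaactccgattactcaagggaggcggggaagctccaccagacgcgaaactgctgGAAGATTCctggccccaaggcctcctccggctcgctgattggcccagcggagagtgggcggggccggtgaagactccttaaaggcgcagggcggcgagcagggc
The stretches had 247 of 250 bases in common. The 3 differences, written with the Hspa1a base first and counted from 1 at the 5′ end, were C44T, T47C and T249G. The element lies 104 to 97 bases before the start in both genes and carries none of these differences. The transcripts are also alike: 62.3% of the 50-base windows of the Hspa1b transcript occur in that of Hspa1a, and 58.8% of those of Hspa1a occur in that of Hspa1b. Reads from such windows cannot be assigned to 1 copy, and the labels give neither read length nor the handling of shared reads. The 2 genes are therefore uncertain as separate measurements.

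The inducible HSP70 genes had about 2-fold lower means in the libraries labelled CEBPβ-A, and 5 of the 8 tested heat-inducible members had no overlap between groups, all lower in CEBPβ-A. Hspa1a and Hspa1b, which share reads, are both among these 5. None of the 63 tested members passed the threshold of 0.05 in limma with Benjamini-Hochberg adjustment over all 9617 genes, where 0.052% of genes passed. At an unadjusted p under 0.05 in limma there were 5 of 63 members beside 8.18% of all tested genes: 4 lower (Hspa1b, Hspa1a, Hsph1 and Hspa4l, all heat-inducible), where 4.42% of tested genes were lower, and 1 higher (Dnajc24), where 3.76% were higher. Groups did not overlap for 9 of 63 members (14.3%) against 16.8% of all tested genes, so the members as a whole were near the background. With Hspa1a and Hspa1b summed as 1 gene, the count without overlap was 8. Those lower were 7, of which 5 were heat-inducible, beside 8.86% of tested genes lower, and those higher were 2, beside 7.89% higher. Fewer cells of a type and less RNA per cell cannot be told apart in such bulk samples.

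Hspa1b, the second of the stress-inducible HSP70 copies (ENSMUSG00000090877.3, GRCm38 chromosome 17, 34956436 to 34959238), had 4.86, 4.29 and 5.49 FPKM in CEBPβ-A replicates 1 to 3. The CEBPβ replicates had 11.1, 8.08 and 10.5 FPKM. Each CEBPβ-A library lay below each CEBPβ library, and the CEBPβ mean was 2.03-fold higher. The log2 fold change, CEBPβ-A minus CEBPβ on the log2(FPKM + 1) scale, was −0.88 (SE 0.13, limma adjusted p = 0.203). Hspa1a (ENSMUSG00000091971.3, chromosome 17, 34969190 to 34972156) had 3.73, 2.76 and 3.79 FPKM in CEBPβ-A and 7.88, 5.48 and 8.19 in CEBPβ. Replicate 2 was the lowest of each group for both copies, and again the groups did not overlap (log2 fold change −0.88, SE 0.16, limma adjusted p = 0.356). Since the copies share reads, they were also summed. The sum depends less on how reads were split, though FPKM divides by length and annotated lengths differ (2803 bases for Hspa1b, 2967 for Hspa1a). It still depends on reads shared with further genes or discarded. The sum was 8.59, 7.04 and 9.28 FPKM in CEBPβ-A against 19.0, 13.6 and 18.7 in CEBPβ. Its mean was 2.06-fold higher in CEBPβ. Without CEBPβ-A replicate 3 the log2 fold changes were −0.96 for Hspa1b and −0.94 for Hspa1a, and with the transcript length trend removed they were −0.90 and −0.89.

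In the HSP110 family, whose proteins act as nucleotide exchange factors for HSP70, 2 heat-inducible members also had lower levels in every CEBPβ-A library. Hsph1, the stress-inducible HSP110 (ENSMUSG00000029657.15, chromosome 5, 149614287 to 149636376), had 8.08, 7.88 and 8.08 FPKM in CEBPβ-A and 10.7, 9.77 and 9.71 in CEBPβ. Its CEBPβ-A libraries lay close together (8.01 ± 0.116, SD, n = 3) and below all of CEBPβ (10.04 ± 0.530). The log2 fold change was −0.29 (SE 0.078, limma adjusted p = 0.588). Hspa4l, a relative first described in testis and induced by heat and osmotic stress (ENSMUSG00000025757.12, chromosome 3, 40744495 to 40796103), had 5.33, 5.24 and 4.39 FPKM against 7.22, 7.23 and 5.82. Replicate 3 was the lowest of both groups, and the groups did not overlap (log2 fold change −0.37, SE 0.11, limma adjusted p = 0.588). Hspa4l has the longest transcript of the heat-inducible members (9479 bases), and with the length trend removed its log2 fold change was −0.18, that of Hsph1 −0.22. Hspa4, the constitutive relative, had 49.8, 51.2 and 48.4 FPKM in CEBPβ-A and 51.9, 52.1 and 46.9 in CEBPβ, with overlap (log2 fold change −0.014, SE 0.073, limma adjusted p = 0.955).

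Bag3, a cochaperone that links HSP70 to autophagy and a textbook HSF1 target (ENSMUSG00000030847.8, chromosome 7, 128523616 to 128546981), had 14.4, 17.1 and 17.4 FPKM in CEBPβ-A. In CEBPβ it had 18.7, 17.7 and 19.3 FPKM. The groups were separate by a narrow gap between 17.4 and 17.7 FPKM (log2 fold change −0.18, SE 0.092, limma adjusted p = 0.589). Without CEBPβ-A replicate 1, the lowest library, the log2 fold change of Bag3 was −0.10. The other 3 tested heat-inducible members overlapped. Dnaja1, a cytosolic J-domain protein, had 15.2, 16.5 and 17.0 FPKM against 18.1, 17.9 and 16.3 (log2 fold change −0.093, SE 0.081), and its sign turned with the length trend removed (0.015). Dnajb1, the J-domain partner of inducible HSP70, had 11.8, 12.3 and 13.5 FPKM against 12.6, 11.8 and 14.1 (log2 fold change −0.034, SE 0.094), and −0.086 without CEBPβ-A replicate 3. Hsp90aa1, the inducible cytosolic HSP90, had 47.3, 60.7 and 52.9 FPKM against 52.3, 52.6 and 54.6, with the widest spread in CEBPβ-A (log2 fold change 0.0051, SE 0.097). Dnajb4, a relative of Dnajb1, lay at 0.345 to 0.759 FPKM and was not tested. Hsf1 itself had 3.08, 2.90 and 2.46 FPKM in CEBPβ-A and 3.18, 2.27 and 2.99 in CEBPβ (log2 fold change 0.0051, SE 0.12, limma adjusted p = 0.991), and a log2 fold change of 0.074 without CEBPβ-A replicate 3.

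**Figure D1:**
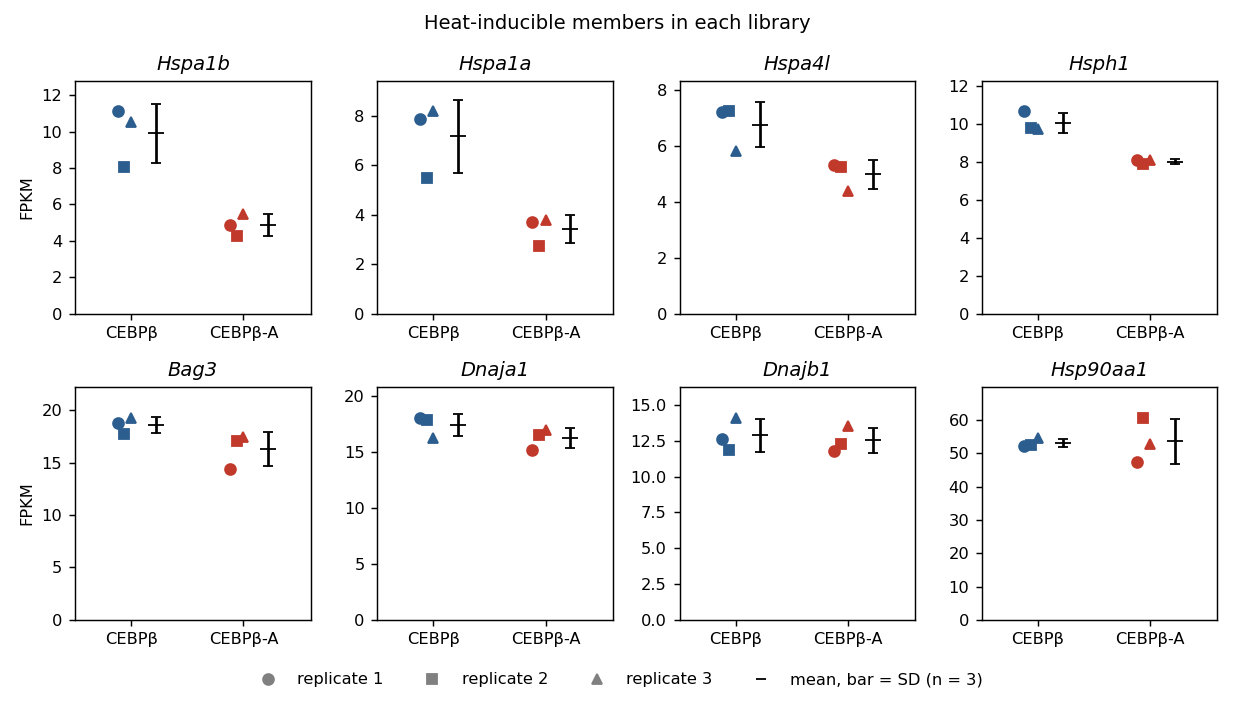
FPKM (vertical axes, from 0) of the 8 tested heat-inducible members in the 3 CEBPβ libraries (blue) and the 3 CEBPβ-A libraries (red), marked by replicate, with the mean and SD beside them. Hspa1b, Hspa1a, Hspa4l, Hsph1 and Bag3 have every CEBPβ-A library below every CEBPβ library, while Dnaja1, Dnajb1 and Hsp90aa1 overlap.

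As a class, the heat-inducible members had a median log2 fold change of −0.24 (8 genes, 7 negative), whereas the constitutive arm had 0.013 (46 genes, 25 positive) and all tested genes −0.013. The difference between the 2 class medians was −0.25. Set against the CEBPβ mean of each gene, the heat-inducible median was −0.28, −0.21 and −0.18 in CEBPβ-A replicates 1, 2 and 3 and 0.066, −0.050 and 0.045 in CEBPβ replicates 1, 2 and 3. The constitutive median stayed between −0.010 and 0.034 in all 6 libraries. The members were chosen with these results known, and no test of the classes was made. Without CEBPβ-A replicate 3 the difference between the class medians was −0.28, and 5 of 8 heat-inducible members did not overlap and were lower, beside 11% of all tested genes in that comparison. Spread over the class was wide: its own fold changes ran from −0.88 to 0.0051, and the pair with shared reads gave both of the lowest. With that pair summed as 1 gene the difference between the class medians was −0.19. Counting Hspd1 and Hspe1, mitochondrial but also heat-inducible, in the inducible class gave −0.15, and counting the ER members gave −0.14.

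**Figure D2:**
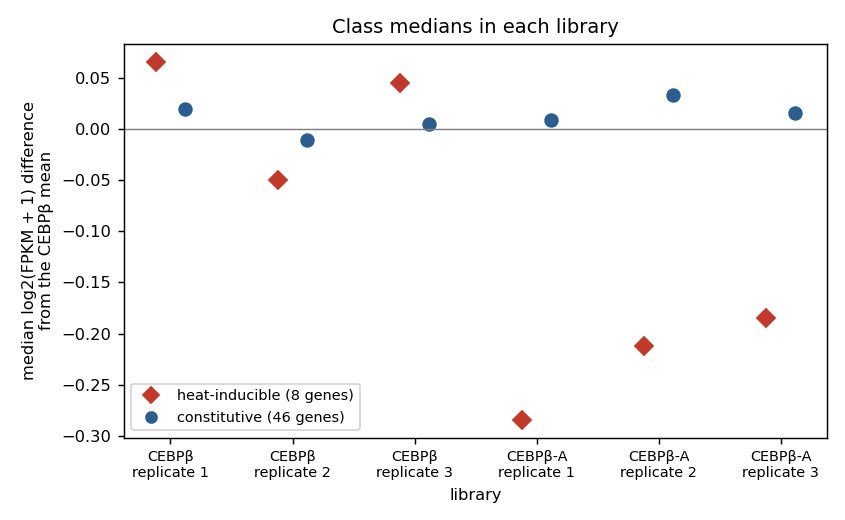
Median over the class of each library's log2(FPKM + 1) difference from the CEBPβ mean of the gene (vertical axis), for the 8 heat-inducible members (red diamonds) and the 46 constitutive members (blue circles) in each of the 6 libraries. The heat-inducible medians of the CEBPβ-A libraries lie between −0.28 and −0.18, below those of the CEBPβ libraries, and the constitutive medians lie near 0 throughout.

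**Figure D3:**
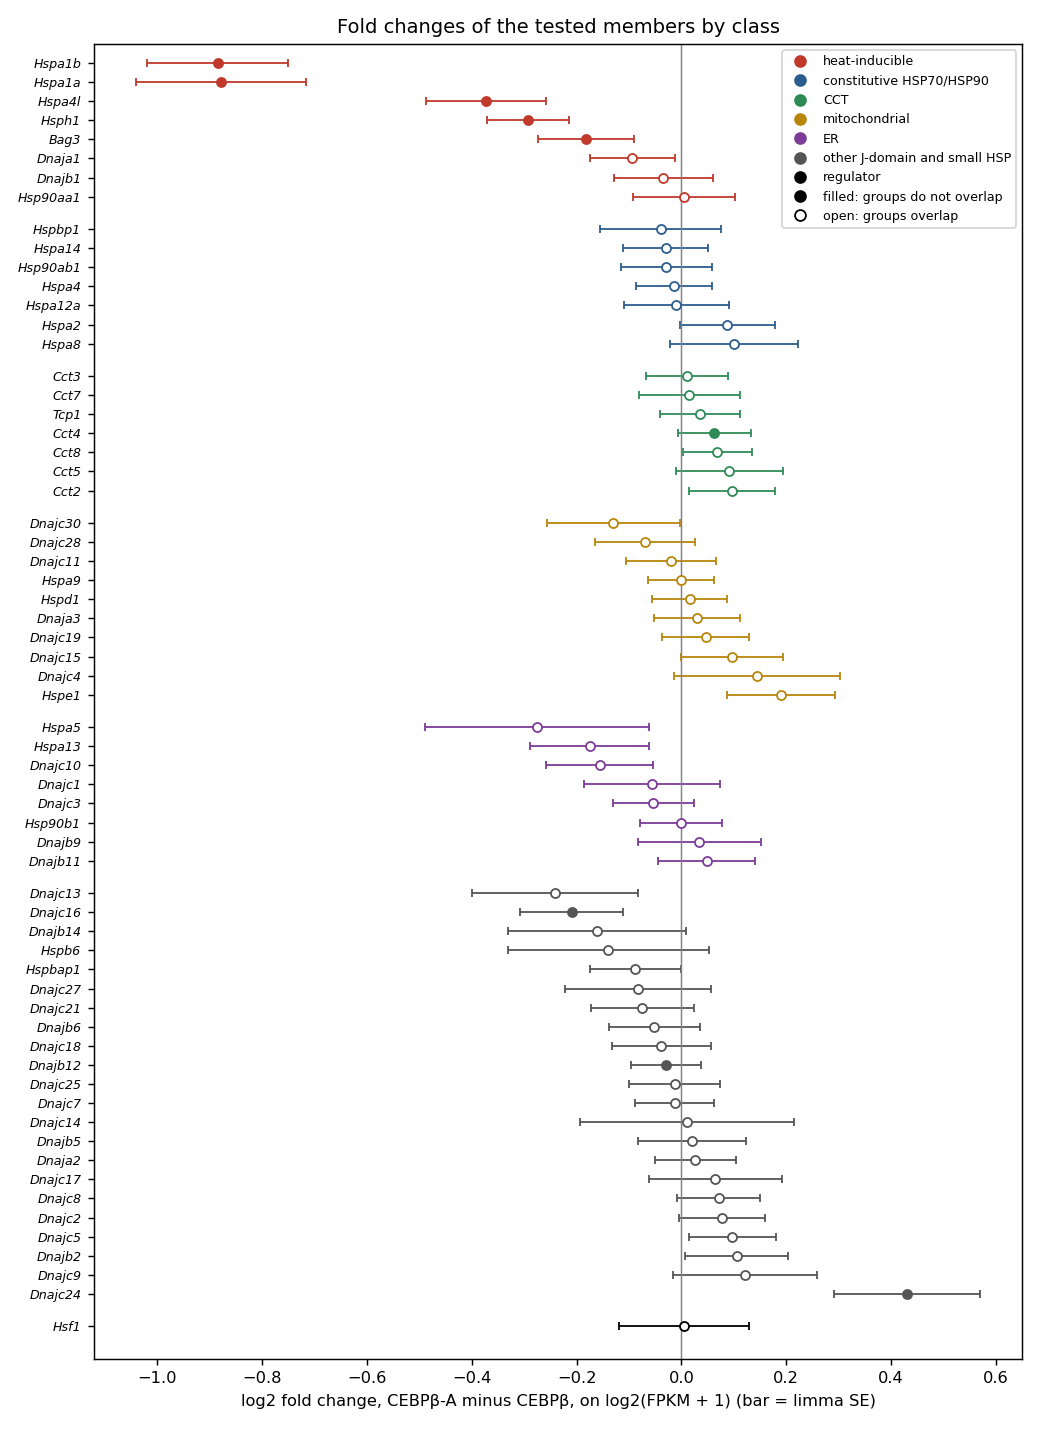
Log2 fold change, CEBPβ-A minus CEBPβ, of the 63 tested members (horizontal axis, bars are limma SEs), grouped by class and ordered within it; filled points are genes whose groups do not overlap. The heat-inducible class reaches −0.88, while the other 55 members lie between −0.28 and 0.43.

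The constitutive HSP70 and HSP90 genes included the most abundant members, and the groups overlapped for all 7 with every library in. Hsp90ab1, the constitutive cytosolic HSP90, was the highest of all 68, at the 99.2th percentile of tested genes, with 372, 375 and 425 FPKM in CEBPβ-A and 394, 378 and 422 in CEBPβ. Replicate 3 was highest in both groups, and the log2 fold change was −0.029 (SE 0.087, limma adjusted p = 0.915). Without CEBPβ-A replicate 3 it was −0.091, and the groups did not overlap. Hspa8, the constitutive HSP70 of the cytosol, had 184, 186 and 205 FPKM against 178, 151 and 211 (log2 fold change 0.10, SE 0.12, limma adjusted p = 0.765), and its log2 fold change was 0.051 without CEBPβ-A replicate 3. Transcripts of 15 other annotated genes share 50-base windows with Hspa8, covering 52.7% of its windows, and 58.5% of those of Hsp90aa1 and 44.8% of those of Hspd1 also occur elsewhere, so these levels depend on how shared reads were handled. Hspa2, Hspa12a, Hspa14 and the exchange factor Hspbp1 ranged from 2.42 to 16.6 FPKM over the libraries, with fold changes of −0.040 to 0.088 on the log2 scale.

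CCT is a double ring of 8 kinds of subunit that folds actin and tubulin, and 7 of its subunits were measured. All 7 had positive log2 fold changes, from 0.011 to 0.097, and none had an unadjusted p under 0.05. Without CEBPβ-A replicate 3, where the subunits stood highest as a class, 6 of 7 were positive and Cct7 was −0.049. Cct2 was the highest, with 71.6, 72.7 and 72.4 FPKM in CEBPβ-A and 68.8, 73.2 and 61.0 in CEBPβ (log2 fold change 0.097, SE 0.082, limma adjusted p = 0.675). Cct5 had 44.1, 51.2 and 57.7 FPKM against 47.4, 46.1 and 49.2, with CEBPβ-A replicate 3 highest (log2 fold change 0.092, SE 0.10), and without that library the value was 0.00075. Cct4 was the 1 subunit without overlap (29.8 to 32.5 FPKM against 28.8 to 29.7, log2 fold change 0.063). Its value was 0.024 without CEBPβ-A replicate 3, and with the length trend removed it was 0.034 and the groups overlapped. FPKM values of the 7 subunits were not equal: group means ran from 17.7 FPKM for Cct7 to 72.2 for Cct2, in the order Cct2, Cct5, Cct8, Cct4, Tcp1, Cct3 and Cct7. The subunits lowest in FPKM also have the longest annotated transcripts (Cct7 3884, Tcp1 3419 and Cct3 3335 bases, against 1959 for Cct2 and 1853 for Cct5). The lengths used for FPKM are not given, and the part of length in this order was not tested. Neighbours Cct3 and Cct7 overlapped in their ranges, as did Cct5 and Cct8, whereas Cct2 lay above Cct5 in every library.

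In mitochondria, Hspa9 is the HSP70 that pulls imported proteins into the matrix, and Hspd1 and Hspe1 are the large ring and the lid of the chaperonin. Hspa9 had 70.7, 67.7 and 67.9 FPKM in CEBPβ-A and 70.3, 67.9 and 68.3 in CEBPβ, close together in all 6 libraries (log2 fold change −0.00068, SE 0.064, limma adjusted p = 0.999). Hspd1 had 61.8, 63.9 and 62.1 FPKM against 63.0, 65.0 and 57.8 (log2 fold change 0.016, SE 0.072, limma adjusted p = 0.944). Hspe1 had 33.6, 35.5 and 39.8 FPKM against 33.3, 34.0 and 27.8, and CEBPβ replicate 3 was the low library (log2 fold change 0.19, SE 0.10, limma adjusted p = 0.590). Hspe1 has a short transcript (964 bases), and its log2 fold change was 0.050 with the length trend removed and 0.12 without CEBPβ-A replicate 3. The 7 J-domain members of this class, among them Dnaja3, the main cochaperone of Hspa9, and Dnajc19 of the import motor, had log2 fold changes of −0.13 to 0.14. No mitochondrial member was without overlap.

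In the ER, Hsp90b1 and Hspa5 (BiP) fold secreted and membrane proteins and are induced by unfolded protein there. Hsp90b1 had 192, 183 and 176 FPKM in CEBPβ-A and 192, 189 and 170 in CEBPβ (log2 fold change −7.9e-05, SE 0.079). Hspa5 had 70.0, 59.2 and 61.9 FPKM against 62.5, 113 and 64.7, so that CEBPβ replicate 2 alone was high. Without that library its log2 fold change was −0.0016, and with it −0.28 (SE 0.21, limma adjusted p = 0.650). Of 20 other ER genes, the 7 of the class and 13 of the pathway list, 8 were lowest of the CEBPβ libraries there, 6 highest and 6 between. Hyou1, an HSP70 relative of the ER, had 14.2 FPKM in that library against 16.0 and 17.3 in the other CEBPβ libraries, while Dnajb9, a cochaperone of Hspa5, had 37.4 against 34.0 and 27.4. No member of the ER class was without overlap, and the class had a median log2 fold change of −0.055 (8 genes, 6 negative).

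Of 38 J-domain members, 34 were tested. Outside the heat-inducible class only Dnajc24 had an unadjusted p under 0.05. It is a J-domain protein of diphthamide synthesis, a modification of elongation factor 2, rather than a stress protein. It had 8.22, 5.71 and 6.59 FPKM in CEBPβ-A and 5.16, 5.11 and 4.09 in CEBPβ. All 3 CEBPβ-A libraries were higher, replicate 1 the most (log2 fold change 0.43, SE 0.14, limma adjusted p = 0.588). Its transcript is short (1197 bases), and with the length trend removed the value was 0.31. Dnajc16, a J-domain protein of the ER, was lower without overlap (3.88 to 4.73 against 4.96 to 5.53 FPKM, log2 fold change −0.21). Its value was −0.14 without CEBPβ-A replicate 3, and with the length trend removed it was −0.089 and the groups overlapped. Lower by a small step, and also overlapping with the length trend removed, was Dnajb12, an ER membrane cochaperone (18.7 to 18.8 against 18.9 to 19.4 FPKM, −0.029). The most abundant of the class were Dnaja2, a general HSP70 partner, with 51.4, 52.4 and 47.0 FPKM against 51.2, 50.2 and 46.4, and Dnajc8, a J-domain protein of splicing complexes, with 26.0, 27.3 and 29.7 against 26.2, 25.0 and 27.5. Both overlapped between groups (log2 fold changes 0.027, SE 0.077, and 0.071, SE 0.080). Without CEBPβ-A replicate 3 they were 0.074, without overlap, and 0.021. The small heat shock protein Hspb6 lay at 0.447 to 1.44 FPKM, and Hspb11, Dnaja4, Dnajb13 and Dnajc12 were under a mean of 1 FPKM and not tested.

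**Figure D4:**
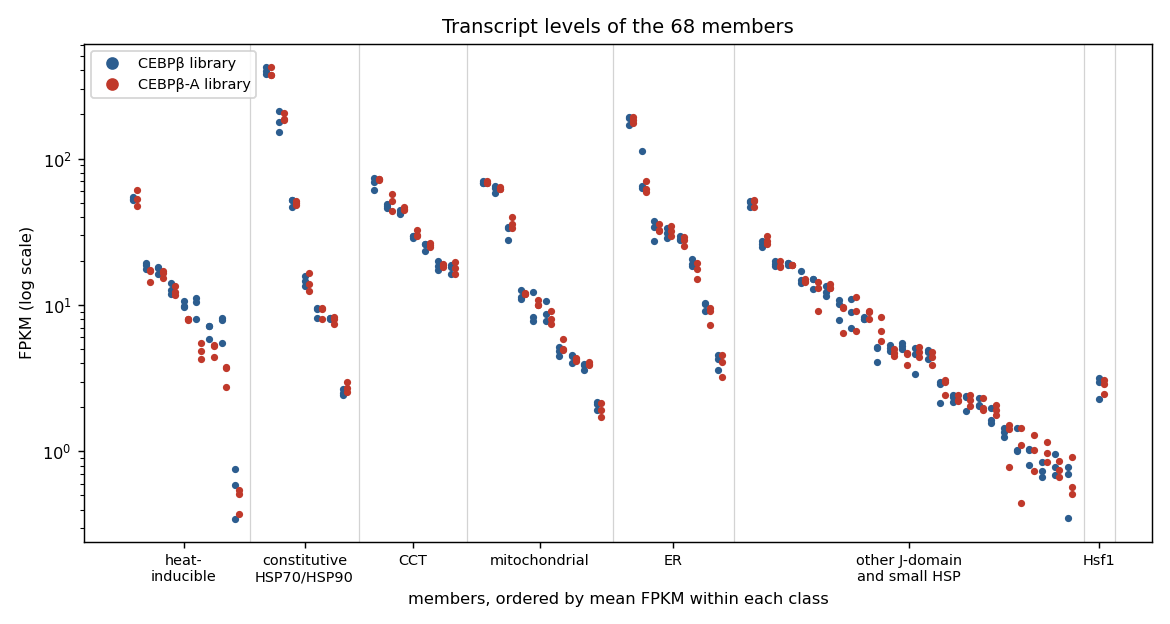
FPKM on a log scale of all 68 members in the 3 CEBPβ (blue) and 3 CEBPβ-A (red) libraries, ordered by mean level within each class. Hsp90ab1, Hspa8 and Hsp90b1 are above 100 FPKM in every library, the heat-inducible class runs from 60.7 FPKM for Hsp90aa1 down to under 1 for Dnajb4, and the isolated high point of the ER class is Hspa5 in CEBPβ replicate 2.

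Heat shock element letters were searched in the RefSeq promoters (GRCm38.p6, 250 bases before to 50 after the start) of 55 of the 68 members. Cct4, Dnajc11, Dnajc12, Dnajc18, Dnajc2, Dnajc30, Dnajc5, Hsf1, Hsp90aa1, Hsp90ab1, Hspa13, Hspa8 and Hspa9 have no entry. The 2-unit forms GAANNTTC and TTCNNGAA, each its own reverse complement so that both strands are read at once, occurred for 15 of 55 members (27.3%) against 1060 of 7600 tested genes (13.9%). Counted over single promoters, the share was 23.3% of 73 for members, 11.8% of 9660 for tested genes and 15.1% of all 32851. Of the heat-inducible members 6 of 8 had a match (Hspa1a, Hspa1b, Hsph1, Bag3, Dnaja1 and Dnajb4, not Hspa4l or Dnajb1). Matches were also found for 2 of 6 CCT, 2 of 7 mitochondrial and 1 of 7 ER members. The class of other J-domain and small heat shock proteins had 4 of 22, and the constitutive HSP70 and HSP90 class 0 of 5. This last class lacks entries for Hspa8 and Hsp90ab1, its most abundant members. Since the heat-inducible class was drawn from textbook heat shock factor targets, its share is not an independent result. Runs of 3 alternating units, which overlap the 2-unit forms, occurred for 4 of 55 members and 0.539% of the 7600 genes. These 4 were Hsph1, Hspd1, Hspe1 and Dnajb6, and the matches are shown because they hold the longest exact runs and belong to genes of unlike fold change. Each line gives 30 bases, 5′ to 3′ on the strand of the gene, with the element in capitals.
Hsph1 (chr5:149636287-149636316, minus strand): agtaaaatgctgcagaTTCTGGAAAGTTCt
Dnajb6 (chr5:29735844-29735873, plus strand): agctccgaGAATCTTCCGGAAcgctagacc
Hspe1 (chr1:55088053-55088082, plus strand): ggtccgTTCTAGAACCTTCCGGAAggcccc
Hspd1 (chr1:55088053-55088082, minus strand): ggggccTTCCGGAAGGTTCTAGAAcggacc
Hspd1 and Hspe1 share 1 run of 4 units, since the genes are transcribed apart from each other from the stretch between them. The Hsph1 run lies after the start. Among the 4, Hsph1 was lower in CEBPβ-A (log2 fold change −0.29), Dnajb6, a suppressor of protein aggregation, had −0.051, and Hspd1 and Hspe1 had 0.016 and 0.19 (−0.016 and 0.050 with the length trend removed). Hspa1a and Hspa1b, with the lowest fold changes, had 2 exact units. The search counted exact GAA and TTC units alone, so longer elements with altered units were missed and element lengths cannot be compared between genes. A match is a string of letters and not a measured site, and no binding of HSF1 was measured.

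**Figure D5:**
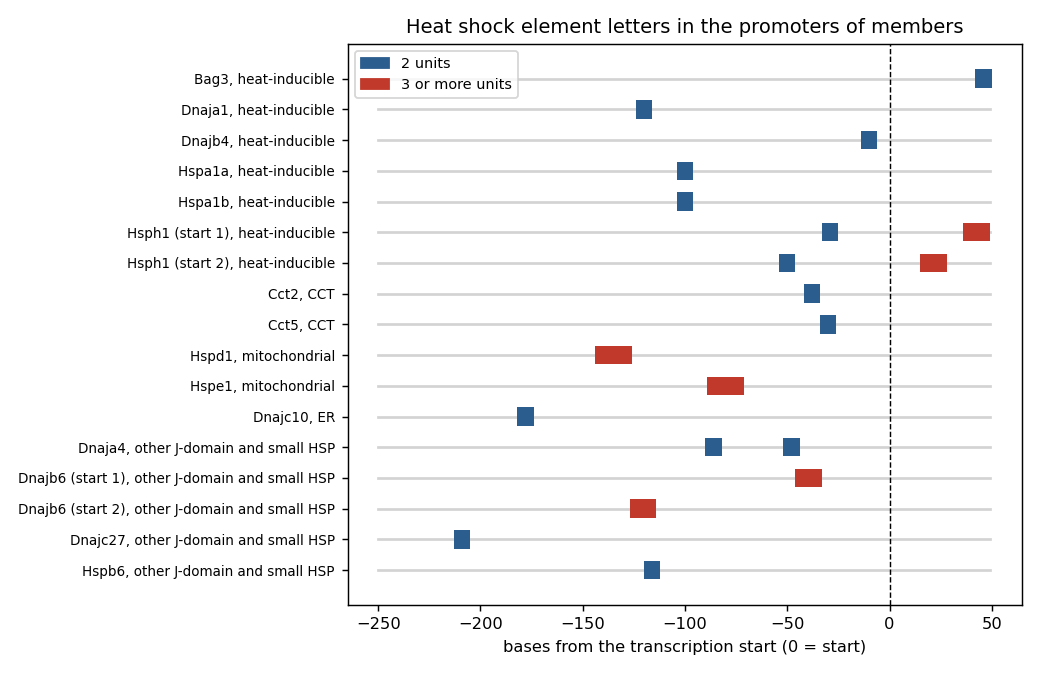
Position of heat shock element letters (boxes, blue for 2 exact units, red for 3 or more) in the promoters of the members that hold any, in bases from the transcription start (0), with 1 line per promoter and the class beside the symbol. Hspa1a and Hspa1b have the element at the same distance, 104 to 97 bases before the start, and the 4-unit run appears in both Hspd1 and Hspe1.

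The partners of the chaperones outside the members were centred near 0. Of 51 such genes (heat shock factor 2, HSP70 and HSP90 cochaperones, prefoldin and ER folding factors), 49 were tested and 0 passed in limma. Groups did not overlap for 3 higher and 3 lower (12.2% against 16.8% of all tested genes), with a median log2 fold change of 0.027. An unadjusted p under 0.05 was found for Pfdn2, a subunit of prefoldin, which hands actin and tubulin to CCT (13.9, 13.0 and 12.9 FPKM against 11.7, 11.4 and 9.90), and for Atf6, an ER stress sensor (14.4, 14.1 and 10.5 against 17.1, 17.0 and 15.4). The log2 fold change of Atf6 was −0.33, and −0.20 without CEBPβ-A replicate 3, and the groups of Pfdn2 overlapped with the length trend removed. The most abundant were the ubiquitin gene Ubb (325 to 417 FPKM against 313 to 357) and the ER chaperone Calr (323 to 360 against 304 to 349), both with overlap. Stip1, which bridges HSP70 and HSP90 and is heat-inducible, had 34.0, 33.3 and 34.7 FPKM against 33.2, 32.2 and 34.5. Of 18 early response genes, which are transcribed soon after many stimuli, 16 were tested, 0 passed in limma, and 8 were higher and 8 lower. With all libraries Fos, part of AP-1, was the 1 without overlap and was higher in CEBPβ-A (20.8, 23.6 and 23.5 against 17.6, 18.8 and 17.9 FPKM, log2 fold change 0.31, limma adjusted p = 0.588). Without CEBPβ-A replicate 3, 4 more did not overlap, all lower in CEBPβ-A like Hspa1a and Hspa1b: Atf3 (log2 fold change −0.27), Ier3 (−0.30), Jun (−0.18) and Btg2 (−0.073), beside 11% of all tested genes lower. Their part in the HSP70 difference was not tested.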

How the data were processed

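RNA sequencing of 6 libraries was analysed, 3 labelled CEBPβ and 3 labelled CEBPβ-A. The authors deposited FPKM per gene, per the file headers. The submitters' processing notes name the build GRCm38. Aligner, counting program and read length: not given in the sources used here. Depth is unknown, so no counting interval is given. Genes with a mean of at least 1 FPKM were transformed to log2(FPKM + 1), so changes of low genes come out too small, and fitted over the whole table with limma 3.58.1 (R 4.3.3, intensity trend, no covariate, two-sided, Benjamini-Hochberg, threshold 0.05); the script was tested on simulated data. Members and lists were chosen with earlier results of these data known. The rule named in full each tested heat-inducible member, Hsf1, members with an unadjusted p under 0.05 and the 2 most abundant of each other class; for genes outside the members it named those with such a p and the 2 most abundant. Hspa4, Hspe1, Cct4, Dnajc16, Dnajb12, Dnajb6, Stip1, the early response genes and the ER genes beside Hspa5 were added after their values were seen. Transcript lengths and windows came from GENCODE M21. Alternatives were a pseudocount of 0.1, no filter, a minimum of 5 FPKM, median-of-ratios scaling, quantile normalization, a replicate block, removal of the length trend, summing of Hspa1a and Hspa1b, other class borders and each library left out in turn.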

Additional observations from a re-analysis of the deposited data

How the results depend on the processing

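No member passed the adjusted threshold in limma under any of the 14 other settings, and adjusted p ran from 0.0905 to 0.799 for Hspa1b and from 0.121 to 0.855 for Hspa1a. Their log2 fold changes stayed between −1.01 and −0.80 and between −1.04 and −0.76. The heat-inducible minus constitutive difference was −0.20 with no filter, −0.19 with Hspa1a and Hspa1b summed, −0.15 with Hspd1 and Hspe1 counted as inducible (inducible median −0.14) and −0.14 with ER members counted so (inducible median −0.12). Median-of-ratios scaling moved the constitutive median to 0.029. With single libraries left out, the difference ran from −0.28 to −0.21, the inducible median from −0.26 to −0.20, the constitutive median from −0.0038 to 0.019 and the count of members without overlap from 12 to 18, since 2 against 3 libraries separate more easily. Same-numbered libraries deviated together with correlations of 0.0993, 0.247 and 0.259, too low in 1 pair to take the numbers as pairs, although each library correlated best with its own number. A replicate block cannot move fold changes or overlap in this balanced design. With it 0 members passed, and the count over all genes was 1 in place of 5. Genes with an unadjusted p under 0.05 in limma went the other way, from 787 to 1285. With the block the SE of Hspa1b was 0.088 in place of 0.13 (limma adjusted p = 0.136). That of Hspa1a was 0.080 in place of 0.16 (limma adjusted p = 0.121). All genes passing were 0 at a minimum of 5 FPKM, 2 after quantile normalization and 8 with the length trend removed. Of 279 recomputed values for 20 named members, 249 kept their sign and 30 changed it. All 30 were for members with a main log2 fold change from −0.093 (Dnaja1) to 0.10 (Hspa8). Quantile normalization gave −0.051 for Hsp90aa1, −0.012 for Hspa8, −0.030 for Hspd1 and −0.018 for Dnaja2. Median-of-ratios scaling gave 0.017 for Hsp90b1 and 0.016 for Hspa9, and the removed length trend 0.015 for Dnaja1, 0.0024 for Hsp90b1 and −0.016 for Hspd1. With single libraries left out, Hsp90aa1 ran from −0.087 to 0.091, Dnajb1 from −0.087 to 0.030, Hsf1 from −0.10 to 0.075, Hsp90ab1 from −0.091 to 0.014, Hspa8 from −0.017 to 0.22, Hsp90b1 from −0.054 to 0.031, Hspa9 from −0.020 to 0.014, Hspd1 from −0.032 to 0.051 and Dnaja2 from −0.015 to 0.074. The cause was not tested for these changes.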

Other observations

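Ratios between members cancel the scaling of a library; those given here were formed after the values were seen, and no test was made. Hspa4 made up 78.8%, 79.6% and 79.5% of the summed FPKM of the HSP110 family (Hspa4, Hspa4l and Hsph1) in CEBPβ-A replicates 1 to 3 and 74.4%, 75.4% and 75.1% in CEBPβ. The transcript of Hspa4l is much longer (9479 bases against 4618 for Hspa4), and the part of the length trend in this share was not tested. The constitutive Hspa8 stood 21.4, 26.4 and 22.1 times above the sum of Hspa1a and Hspa1b in CEBPβ-A and 9.38, 11.2 and 11.3 times in CEBPβ. The corresponding HSP90 ratio, Hsp90ab1 over Hsp90aa1, overlapped (6.17 to 8.04 in CEBPβ-A, 7.19 to 7.73 in CEBPβ). Hspd1 over Hspe1 was 1.84, 1.80 and 1.56 in CEBPβ-A and 1.89, 1.91 and 2.08 in CEBPβ, so the groups were separate by a narrow gap, and the transcript of Hspe1 is much shorter (964 against 2423 bases). The ratio of Hspa1b to Hspa1a, 1.28 to 1.56 over the libraries, was alike in both groups.

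The members together made up 0.638%, 0.641% and 0.606% of the summed FPKM of all listed genes in CEBPβ-A. In CEBPβ the share was 0.672%, 0.669% and 0.647%, without overlap. The members' own summed FPKM overlapped (1833 to 1897 against 1868 to 1874). The sum over all listed genes was 287425, 288090 and 313215 in CEBPβ-A and 278907, 279319 and 289761 in CEBPβ. Lyz2 alone had 21403 to 29717 FPKM in CEBPβ-A and 19554 to 28417 in CEBPβ. The share depends on these sums as well, and their part was not tested. Hsp90ab1, Hspa8 and Hsp90b1 gave 38.5% to 42.9% of the members' sum. Within groups the members varied little: the median coefficient of variation was 8.49% for the tested members and 5.23% for CCT, against 10.7% over all tested genes.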
